A study of Mus musculus with 8 samples.

Results

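Intergenic long noncoding RNAs (lncRNAs) were examined in extracellular vesicles (EVs) that the submitters labelled as derived from the mouse heart. Of 31549 lncRNA identifiers in the table, 18480 were classed as intergenic, and 12722 of these were at least 200 nt long. After 66 entries of well-known nuclear and imprinted lncRNAs and snoRNA host genes (Malat1, Neat1, H19, Meg3, Miat, Gas5 and the Snhg genes) were set aside, 12656 entries at 8146 loci remained. By the labels and the study's methods, the EVs came from the hearts of male C57BL/6J mice aged 10 weeks, with 4 mice after a sham operation (S-EVs) and 4 after ischemia-reperfusion (IR-EVs). In the IR mice, the left anterior descending coronary artery was tied for 45 min and reopened for 24 h. EVs were collected by digesting the ventricle with collagenase and by ultracentrifugation, so vesicles of every cell type of the digested tissue could be present. Total RNA was depleted of ribosomal RNA and sequenced as 1 stranded library per mouse.

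Intergenic lncRNAs are transcribed between protein-coding genes. Most are made by RNA polymerase II, and they include scaffolds of chromatin and ribonucleoprotein complexes and host transcripts of miRNAs. The same class of an annotation also holds short structured RNAs made by RNA polymerase III, such as 7SK, which restrains the elongation factor P-TEFb, and 7SL, the RNA of the signal recognition particle. EVs carry both kinds together with fragments of mRNAs and ribosomal RNA. In sequencing of bulk samples such as these, fewer vesicles or cells of a type and less RNA per vesicle or cell cannot be told apart.

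Sequences of 3 sets of entries are shown here, from the mouse assembly GRCm38 (mm10), because reads from them could belong to more than 1 place in the genome (the first and second set) or to more than 1 annotated entry (the third). The first set is 7SK (Rn7sk, chr9:78175353-78175492, minus strand) and Gm24447 (chr15:93234504-93234643, plus strand), 140 bases of each from base 142 on. Capitals mark the bases that the pair shares up to the end of their alignment.
Rn7sk: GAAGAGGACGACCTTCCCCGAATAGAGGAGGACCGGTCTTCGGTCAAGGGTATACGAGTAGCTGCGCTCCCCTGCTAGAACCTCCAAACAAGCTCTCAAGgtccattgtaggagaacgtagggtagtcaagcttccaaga
Gm24447: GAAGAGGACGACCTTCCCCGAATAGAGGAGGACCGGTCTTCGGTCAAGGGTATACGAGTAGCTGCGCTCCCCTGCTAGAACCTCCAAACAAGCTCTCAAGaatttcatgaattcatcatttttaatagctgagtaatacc

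The second set is TCONS_00000374 on chromosome 1 (chr1:24616108-24616188, minus strand) beside the mitochondrial genome (chrM:6390-6470, plus strand), with the 1 base that differs in capitals.
TCONS_00000374: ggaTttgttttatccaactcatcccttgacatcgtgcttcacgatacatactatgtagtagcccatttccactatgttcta
Mitochondrial genome: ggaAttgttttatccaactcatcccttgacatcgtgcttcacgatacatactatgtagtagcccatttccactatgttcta

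The third set is ENSMUST00000184347, a 236-nt entry listed as TUG1_3 that lies within an exon of the lncRNA gene Tug1 (chr11:3645286-3645521, minus strand). It is written in capitals because all of it is exonic in Tug1.
ENSMUST00000184347: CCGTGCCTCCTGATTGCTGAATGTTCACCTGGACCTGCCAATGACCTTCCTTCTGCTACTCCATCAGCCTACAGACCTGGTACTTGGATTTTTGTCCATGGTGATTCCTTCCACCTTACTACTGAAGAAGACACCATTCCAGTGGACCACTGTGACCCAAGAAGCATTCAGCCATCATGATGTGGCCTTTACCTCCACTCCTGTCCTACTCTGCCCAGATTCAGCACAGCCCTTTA

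The lncRNA table held 805140 (IR 1) to 1842826 fragments per library, and the intergenic entries took 42.9% to 50.3% of them in 7 libraries and 26.9% in IR 1. The mRNAs of the same libraries went against the labelled source, since cardiomyocyte mRNAs were scarce and enterocyte mRNAs abundant in all 8. The 12 listed cardiomyocyte genes summed to 2.55 to 6.05 FPKM per library, and Myl2, Nppa, Mb and Csrp3 were at 0 in all 8. The 10 listed enterocyte genes (markers of the absorptive cells of the small intestine) summed to 19511 to 33694 FPKM. FPKM, the fragments scaled to transcript length and to the mapped fragments of the library, is the scale of all levels given here. A further 5 entries near cardiac or fibroblast marker genes were examined in the same way, AK040421 beside the myoglobin gene Mb, 3 entries of C130080G10Rik beside the cardiac actin gene Actc1, and Gm19583 beside Pdgfra. Each was at 0 FPKM in all 8 libraries.

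Most intergenic entries were not seen in the EVs. Of the 12656, 7402 had no fragment in any library, 4218 had fragments but a mean below 0.5 FPKM, and 1036 (8.19%) reached a mean of 0.5 FPKM and were tested. The tested entries had a median of 1.33 FPKM. Of them, 383 lay at 0.5 to under 1 FPKM, 571 at 1 to under 10, 71 at 10 to under 100 and 11 at 100 or more. Abundance was concentrated, since the 15 most abundant entries by FPKM held 81.6% of all fragments of the class. The ribosomal RNA unit Rn45s held the most, with 1832216 fragments over the sham and 1287171 over the IR libraries. Rn7sk, the RNA 7SK, held 332707 and 282793. The tested entries were longer than the class as a whole (a median of 1532.5 nt against 1130 nt, the longest entry being 22911 nt). At the length limit, 51 entries lay inside by less than 10 nt and 4 of these were tested, while 47 intergenic entries lay outside by at most 10 nt and 2 of these passed the same minimum. Among lncRNAs of at least 200 nt, 27.6% of exon sense-overlapping, 25.6% of intron sense-overlapping, 17.6% of bidirectional, 10.2% of natural antisense and 4.67% of intronic antisense entries reached 0.5 FPKM, against 8.39% of intergenic entries before the named genes were set aside.

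By FPKM, which scales fragments to length, the most abundant intergenic RNA in the EVs was 7SK. Rn7sk (331 nt, chr9:78175303-78175633) was at 15369, 20272, 23304 and 28292 FPKM in sham 1 to sham 4 and 26294, 22308, 20341 and 19812 FPKM in IR 1 to IR 4. The groups overlapped, with means of 21809 ± 5419 and 22189 ± 2940 FPKM (SD, n = 4 each). The second was 7SL, where Rn7s2 (300 nt, chromosome 12, listed as Metazoa_SRP) was at 12916, 14567, 16206 and 14820 FPKM in sham 1 to sham 4 and 11177, 12710, 10696 and 10960 FPKM in IR 1 to IR 4. All 4 IR values lay below all 4 sham values, but the log2 fold change was -0.25 (standard error 0.13) with an adjusted p of 0.757 from edgeR. In each of the 8 libraries Rn7sk was above Rn7s2, and Rn7s2 was above every other intergenic entry.

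Several other abundant entries were relatives or parts of known RNAs. Gm22179 had a mean of 1241 FPKM and was 98.6% identical to 7SL over 214 nt. Gm24447 had a mean of 429 FPKM, and its first 241 bases were those of 7SK. The capitals of the first set above are the last part of this stretch. AK140265, AK139402 and AK131592 were annotated on the mitochondrial genome itself, with means of 420, 205 and 117 FPKM. TCONS_00000374 (229 FPKM) and Atpase6 (150 FPKM) lie on chromosome 1, and the spans of their loci matched the mitochondrial genome at 99.8% over 519 nt and at 100% over 847 nt. The span of TCONS_00000374 is shared by 3 lncRNA entries. In all, 16 of the 803 tested entries whose span could be searched matched 7SK, 7SL, the ribosomal RNA unit Rn45s or the mitochondrial genome, as 4, 2, 2 and 8 entries. Gm5485 (93.0 FPKM) and 9130409J20Rik (51.4 FPKM), both overlapping an exon of a coding gene, had no such match, and AK020274 (63.4 FPKM) was not searched. All IR values of 9130409J20Rik (43.5 ± 7.84 FPKM) lay below all sham values (59.3 ± 4.05 FPKM), at an edgeR adjusted p of 0.726. For the 15 most abundant entries the edgeR p between groups was 0.061 or more before adjustment.

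**Figure D1:**
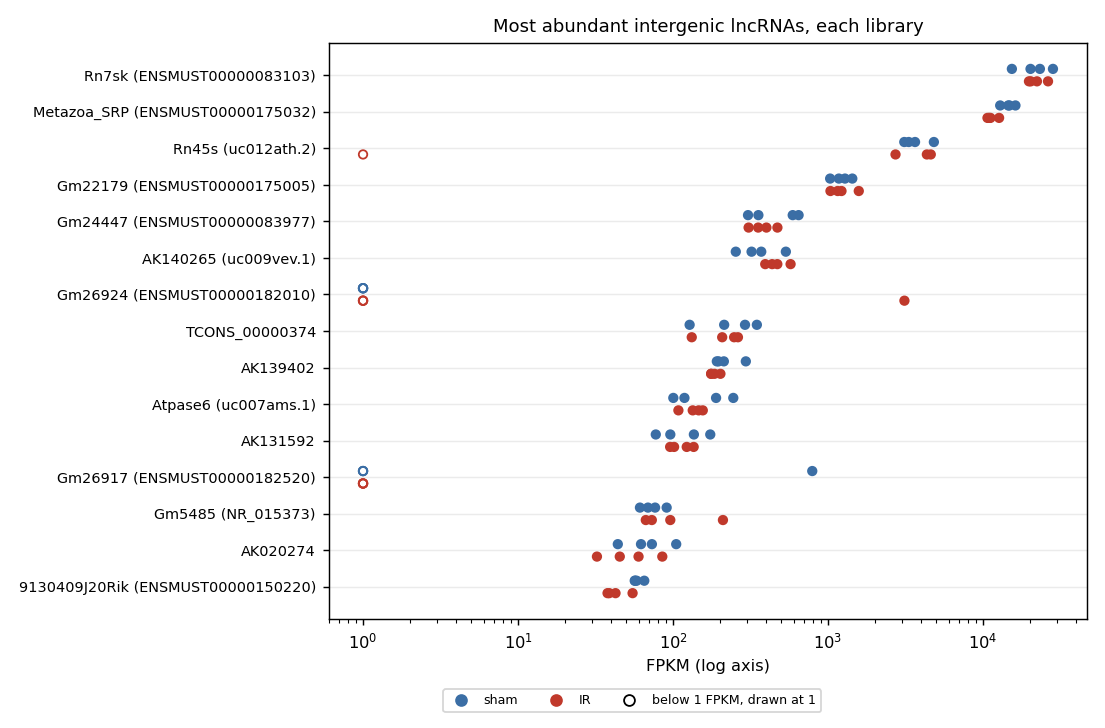
FPKM on a log axis of the 15 most abundant intergenic entries, with 1 point per library (4 sham in blue, 4 IR in red; open circles are values below 1 FPKM, drawn at 1). Rn7sk leads at 15369 to 28292 FPKM, and the Metazoa_SRP and 9130409J20Rik points of IR lie below those of sham. Rn45s is at 0 in IR 1, and Gm26924 and Gm26917 have 1 library each above 0.

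Ribosomal RNA sequence was uneven between libraries. Rn45s, the precursor of the large ribosomal RNAs, was at 4823, 3645, 3322 and 3107 FPKM in sham 1 to sham 4 and 0, 4346, 4605 and 2728 FPKM in IR 1 to IR 4. IR 1 was listed at 0, and the other 7 libraries lay within 2728 to 4823 FPKM. Gm26924 was at 3114 FPKM in IR 3 and at 0 in the other 7 libraries, and Gm26917 was at 792 FPKM in sham 1 and at 0 in the other 7. Both sequences are identical to a part of Rn45s, and all 3 lie at 1 locus (chr17:39842995-40064883) that holds 30 lncRNA entries. Summed over the locus, IR 1 had 0 fragments and the other 7 had 275090 to 849438. Such a 0 can also be an estimate that was not made, and no difference between groups was called at this locus.

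Of the 12656 entries, 8063 (63.7%) could be placed as single spans on the genome, and the share detected differed with the position to protein-coding genes. The spans of 379 entries, taken from start to end with any introns, overlapped an exon of a coding gene on the same strand. Of these, called entries on exons here, 135 (35.6%) reached 0.5 FPKM. Within 10 kb beyond the end of a coding gene, on the same strand, 211 of 805 (26.2%) did. By contrast, 34 of 453 (7.51%) did before the start on the same strand, 37 of 405 (9.14%) beyond the end on the opposite strand, 50 of 568 (8.80%) before the start on the opposite strand, and 31 of 256 (12.1%) within a gene's bounds without a same-strand exon. Over 10 kb from any coding gene, 157 of 5197 (3.02%) did. The median distance was 1904 nt for tested and 29037 nt for untested entries. The tested entries on exons also had the highest median level, 2.30 FPKM, against 1.11 FPKM for those beyond a gene's end and 1.31 FPKM for those over 10 kb away. These are counts and medians over entries, with no test.

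**Figure D2:**
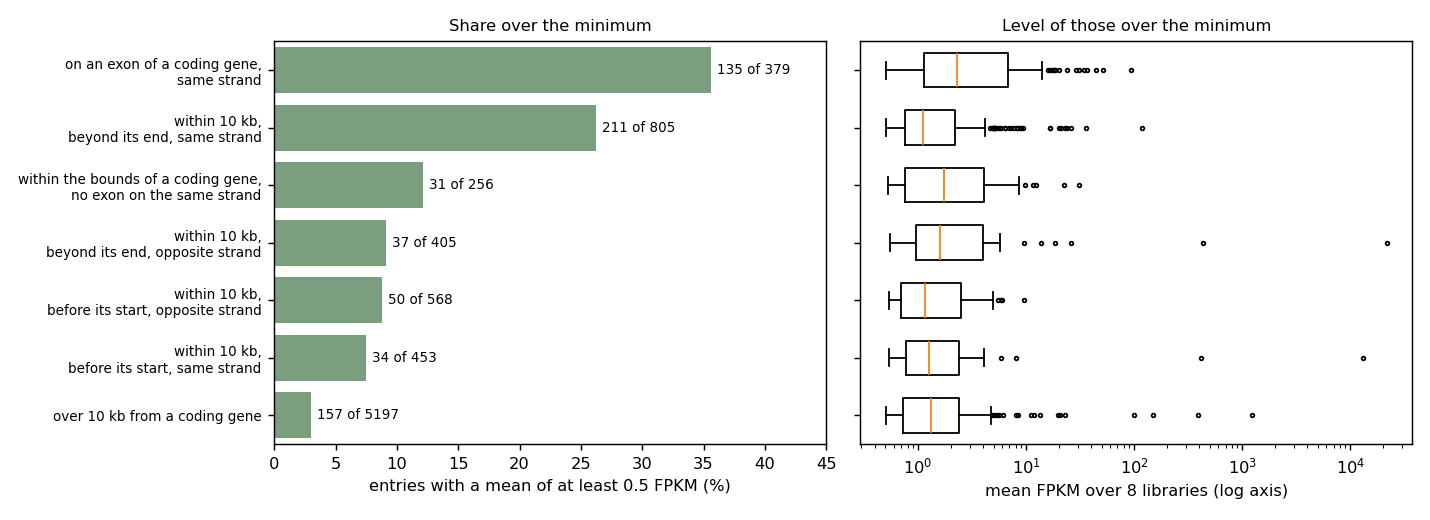
Left, the percent of intergenic entries averaging 0.5 FPKM or more, by position to the nearest coding gene, with counts beside the bars; right, mean FPKM over 8 libraries on a log axis for those entries (boxes from quartile to quartile, line at the median, whiskers to 1.5 times the box, circles beyond). The share runs from 35.6% for spans that overlap a same-strand exon to 3.02% over 10 kb away.

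Entries on coding exons were set beside the mRNA of the gene. AK078917 (900 nt, chr7:120184098-120185003, on an exon of Anks4b, a gene of the intestinal brush border) was at 29.2, 33.7, 32.6 and 31.3 FPKM in sham 1 to sham 4 and 36.7, 46.2, 39.9 and 40.5 FPKM in IR 1 to IR 4. All IR values were above all sham values, with a log2 fold change of 0.46 ± 0.13 (SE; edgeR adjusted p = 0.587). The Anks4b mRNA was at 106 ± 13.7 and 130 ± 11.7 FPKM (log2 fold change 0.41, edgeR adjusted p = 0.468). For uc008gpa.1 on Fads2, a fatty acid desaturase gene, the entry had a log2 fold change of -0.57 and the mRNA one of -0.60. For AK077756 on Palld, which encodes an actin-associated protein, the values were 0.05 and -0.10. Of the tested entries on exons, 115 had their gene (104 genes) in the mRNA table. Where exons of the entry and of the gene overlap, their reads cannot be told apart. The overlap was taken from spans, so it need not hold for the exons of a spliced entry.

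The comparison of IR-EVs with S-EVs asked which intergenic lncRNAs change in the vesicles after injury. With edgeR, 0 of the 1036 tested entries had an adjusted p under 0.05 with a fold change over 2 (background, 0% of 3088 tested lncRNAs). The smallest adjusted p among them was 0.366, against 0.277 over all lncRNAs. At an unadjusted p under 0.05, 76 entries (7.34%) passed, beside 7.06% of all lncRNAs. Of these, 40 were higher in IR (3.86%, beside 4.31%) and 36 were lower (3.47%, beside 2.75%). With a fold change over 2 as well, 15 were higher (1.45%, beside 1.78%) and 8 were lower (0.772%, beside 0.81%). The 15 became 26 without sham 2 and 9 without sham 4 or without IR 1, the library in which the ribosomal RNA locus was listed at 0. All 4 IR libraries lay above all 4 sham libraries for 20 entries (1.93%, beside 1.94%) and below for 28 (2.7%, beside 2.88%). The shares of the intergenic class were thus near those of all lncRNAs, and its median log2 fold change was 0.03, against 0.01 over all. DESeq2 called 3 entries higher (beside 0.389% of all lncRNAs) and 0 lower (beside 0.0972%), and limma on log2(FPKM + 0.1) called 1 (beside 0.0324%). The 3 were ENSMUST00000184347, TCONS_00013490 and AK041306, and limma's 1 was ENSMUST00000184347.

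**Figure D3:**
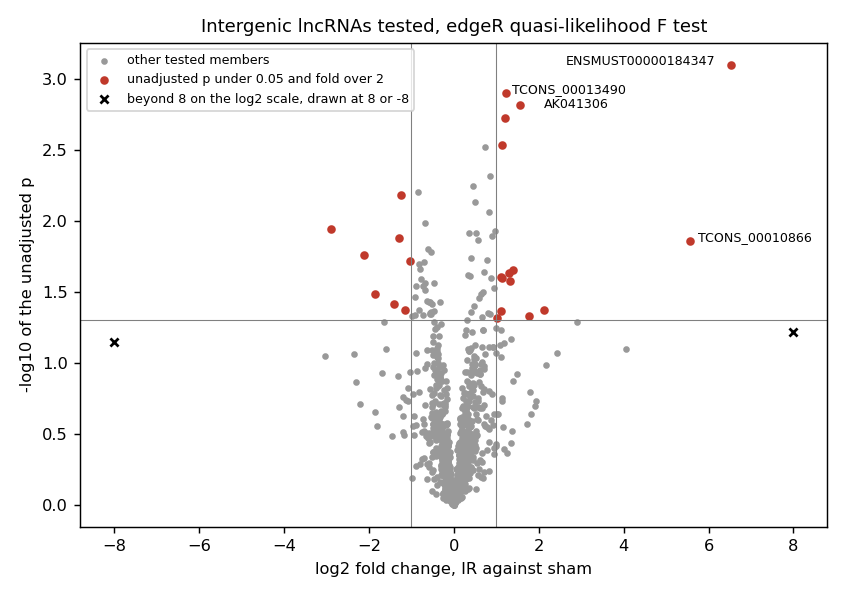
Log2 fold change of IR over sham against -log10 of the unadjusted p from edgeR, with 1 point per tested intergenic entry (1036 in all). The 23 red points have an unadjusted p under 0.05 and a fold change over 2, 15 to the right and 8 to the left, and no point passes the adjusted threshold; 2 entries beyond 8 on the log2 scale are drawn as crosses at the edge.

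Of the 23 entries with an unadjusted p under 0.05 and a fold change over 2, 11 had groups that did not overlap, 7 had a mean under 10 fragments, and 13 shared their locus with another lncRNA entry. The 23 were picked by p and fold change on these same values, and this choice itself favours groups that do not overlap. The same count for all lncRNAs that pass this filter is not given here, so nothing is concluded from the 11. The entries with the smallest p are described in each direction, as a description and not as calls.

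ENSMUST00000184347 had the smallest p of the class. It was at 0, 0, 0 and 0 FPKM in sham 1 to sham 4 and 4.30, 11.8, 3.51 and 6.85 FPKM in IR 1 to IR 4, from 0, 0, 0 and 0 fragments in sham 1 to sham 4 and 6, 21, 5 and 10 fragments in IR 1 to IR 4. No sham library had a fragment assigned to this entry and every IR library had some, at an adjusted p of 0.366 with edgeR and of 0.00428 with DESeq2. With the sham group set at a floor of 3 fragments, the 95% limit for a count of 0, the ratio of assigned fragments was 17.6. The spread between mice and the counting error of the IR fragments are left out of it. That ratio is no lower limit for the RNA itself, since fragments of these bases can also be assigned to other Tug1 entries. The 236 bases shown above are part of the Tug1 transcript, a widely expressed lncRNA. All 12 lncRNA entries of the Tug1 locus (chr11:3639399-3690477) together had 3487, 3118, 4305 and 3928 fragments in sham and 2444, 3018, 2711 and 3126 in IR. The log2 fold change of this sum was -0.07. Other entries set that sum, so it says little about the short entry, which had at most 21 fragments in a library.

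TCONS_00013490 (3381 nt, chromosome 17) was at 3.58, 2.01, 1.89 and 1.42 FPKM in sham 1 to sham 4 and 4.81, 5.17, 4.31 and 5.01 FPKM in IR 1 to IR 4. All IR values were above all sham values, with a log2 fold change of 1.22 (standard error 0.26), an adjusted p of 0.369 with edgeR and of 0.00728 with DESeq2. Its neighbour TCONS_00013489, of 3478 nt and the same XLOC_010501 locus, was at 3.23, 4.55, 4.16 and 5.58 FPKM in sham 1 to sham 4 and 1.51, 0.0012, 1.31 and 2.50 FPKM in IR 1 to IR 4. There all IR values were below all sham values, with a log2 fold change of -1.68 ± 0.96 (SE; edgeR adjusted p = 0.758). Over the 13 entries of the locus (chr17:22197265-22314946) the fragments numbered 537, 518, 705 and 702 in sham and 449, 515, 445 and 569 in IR, with a log2 fold change of 0.01. The 2 entries went in opposite directions while the sum of the locus stayed level.

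**Figure D4:**
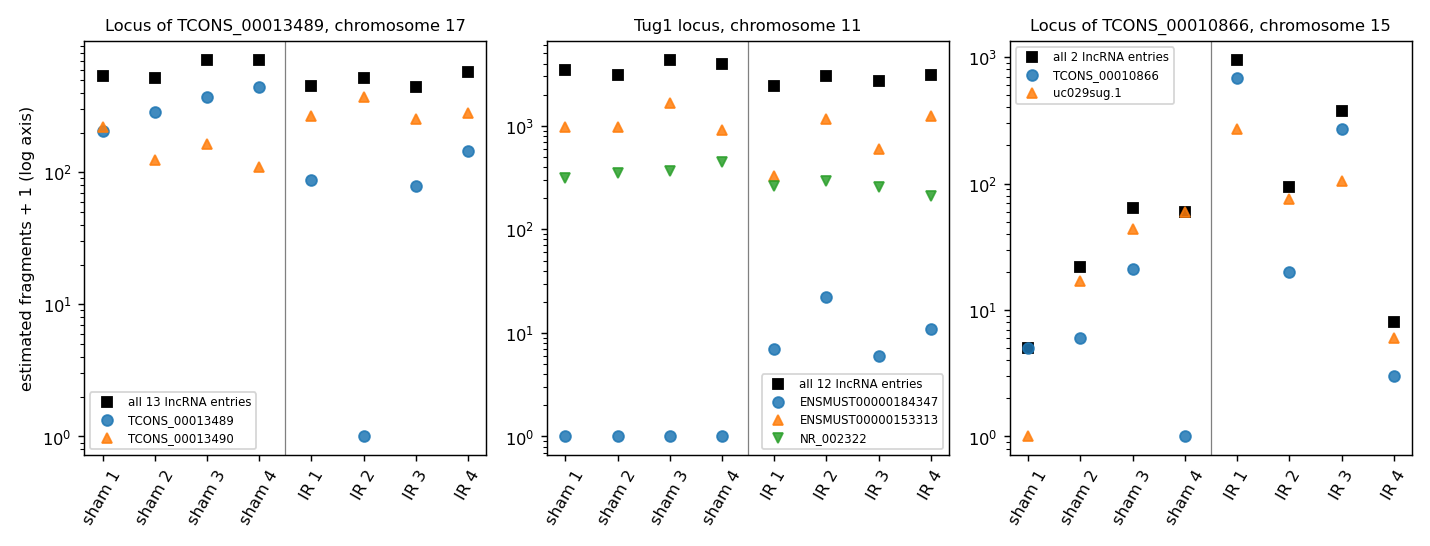
Estimated fragments plus 1 per library on a log axis at 3 loci, with the named entries as coloured symbols and the sum of all lncRNA entries of the locus as black squares; a vertical line parts 4 sham from 4 IR libraries. At the chromosome 17 and Tug1 loci the sums overlap between groups, while 2 entries in opposite directions and 1 entry, respectively, separate them, and at the chromosome 15 locus the sum runs from 4 fragments in sham 1 to 943 in IR 1.

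AK041306 (1790 nt, chr7:101576970-101578763, on an exon of Art2b, an ADP-ribosyltransferase gene of T cells) was at 0.517, 0.906, 0.297 and 0.515 FPKM in sham 1 to sham 4 and 1.95, 1.40, 1.39 and 1.41 FPKM in IR 1 to IR 4. All IR values were above all sham values, with a log2 fold change of 1.56 (standard error 0.34), an adjusted p of 0.394 with edgeR and of 0.016 with DESeq2. The Art2b mRNA was at 1.80 ± 0.621 and 4.11 ± 1.19 FPKM (log2 fold change 1.30, edgeR adjusted p = 0.457). Markers of T and NK cells were set beside this entry. Their 8 genes summed to 81.5, 270, 80.3 and 160 FPKM in sham and 422, 175, 297 and 351 FPKM in IR, so the groups overlapped, with IR 2 below sham 2. Of the 8, 6 had an unadjusted p under 0.05 and were higher by more than 2-fold (beside 1.19% of 12742 mRNAs tested), and 0 had an adjusted p under 0.05 with edgeR. Their part in the result was not tested.

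AK009210 (1978 nt, on an exon of Klhl33) was at 0.435, 0.349, 0.411 and 0.301 FPKM in sham 1 to sham 4 and 1.05, 0.841, 0.578 and 0.760 FPKM in IR 1 to IR 4. The groups did not overlap, with a log2 fold change of 1.20 ± 0.27 (SE; edgeR adjusted p = 0.405). AK037257 (1730 nt) lies 1853 nt beyond the end of Ugcg, the gene of glucosylceramide synthase, and was at 0.706, 0.505, 1.05 and 0.643 FPKM in sham 1 to sham 4 and 1.18, 1.80, 1.55 and 1.47 FPKM in IR 1 to IR 4. The IR values did not overlap those of sham, whereas Ugcg itself was at 74.5 ± 18.8 and 63.9 ± 7.62 FPKM. AK043594 and F630028O10Rik (ENSMUST00000147681, annotated in RefSeq with the synonym mir-223, a miRNA of myeloid cells) had log2 fold changes of 0.74 and 0.85 with adjusted p values of 0.468 and 0.557 from edgeR. Markers of macrophages and dendritic cells summed to 149 to 421 FPKM in sham and 300 to 576 FPKM in IR, and their part in this was not tested.

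In the other direction, Gm8989 (NR_030720_2) was at 9.54, 5.27, 5.99 and 5.85 FPKM in sham 1 to sham 4 and 3.34, 2.71, 4.55 and 3.19 FPKM in IR 1 to IR 4. All IR values were below all sham values, with sham 1 standing apart at the top, and the log2 fold change was -0.85 ± 0.24 (SE; edgeR adjusted p = 0.596). AK142657 was at 3.64 ± 0.679 and 2.10 ± 0.382 FPKM, also without overlap. 2010204K13Rik (ENSMUST00000128571) had 13, 7, 6 and 5 fragments in sham 1 to sham 4 and 2, 0, 1 and 0 fragments in IR 1 to IR 4. That is 31 against 3 fragments, a ratio of IR to sham of 0.122 with a counting interval of 0.0238 to 0.390. The interval leaves out the spread between mice. With that spread, the log2 fold change was -2.89 ± 0.90 (SE; edgeR adjusted p = 0.698). AK145174, 3002 nt beyond the end of Mau2, was at 2.45 ± 0.725 and 0.908 ± 0.341 FPKM without overlap, while Mau2, a cohesin loader gene, was at 16.9 ± 1.15 and 16.8 ± 1.02 FPKM. TCONS_00016061 (log2 fold change -0.62), AK149597 on an exon of Frrs1 (-0.54), AK082538 (-2.11) and TCONS_00015067 (-1.24) completed the 8, with adjusted p values from edgeR of 0.596 to 0.699. Summed over the 47 lncRNA entries listed at the locus of TCONS_00016061, the log2 fold change was 0.24, and over the 3 at the locus of AK082538 it was -0.29. The first of these sums (chr19:5590100-6300096) held 221678 to 341598 fragments per library, and TCONS_00016061 itself 375 to 1350. Other entries thus set that sum, and it says little about TCONS_00016061. Of the 6 placed entries among the 8 higher, 3 lay on coding exons, as did 1 of the 5 placed among the 8 lower, beside 135 of all 655 placed entries tested.

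**Figure D5:**
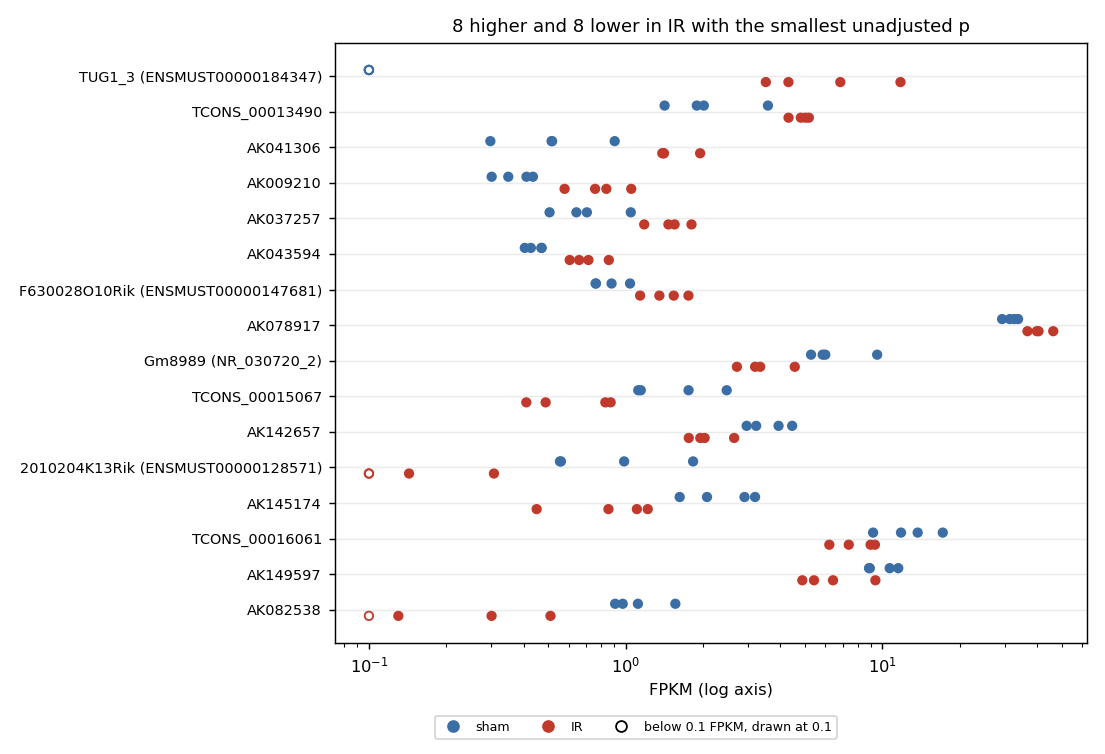
FPKM on a log axis of the 8 entries higher in IR (top) and the 8 lower (bottom) with the smallest unadjusted p, with 1 point per library (4 sham in blue, 4 IR in red; open circles are values below 0.1 FPKM, drawn at 0.1). Groups do not overlap except for TCONS_00016061 and AK149597, and AK078917, at 29.2 to 46.2 FPKM, is the most abundant of the 16.

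Among the intergenic entries the study had named from these same samples, 8 of 11 were tested. Since they were chosen on these values, their differences are descriptions. TCONS_00010866 (444 nt, chr15:86194749-86195325) was at 0.758, 0.937, 2.59 and 0.0014 FPKM in sham 1 to sham 4 and 139, 2.98, 53.0 and 0.459 FPKM in IR 1 to IR 4. IR 1 and IR 3 were high while IR 4 lay below 3 of the sham libraries, so the groups overlapped, and the log2 fold change of 5.55 had a standard error of 1.76 and an adjusted p of 0.698 from edgeR. The locus, 577 nt long, aligned over at least 200 nt at 27 other places on 17 chromosomes, 18 of them at least 90% identical. It had no match of 100 nt or more to the stretch of Rn45s searched here, the first 5818 bases at that locus. It was not compared with a full 28S ribosomal RNA, so this lack of a match cannot decide whether it holds ribosomal RNA sequence. That was not tested. The stretch between the primers that the study lists for this entry (chr15:86195123-86195262, plus strand) also occurs on chromosome 10 (chr10:105238337-105238476, plus strand) and is shown to make this plain, with the primer sites in capitals.
TCONS_00010866: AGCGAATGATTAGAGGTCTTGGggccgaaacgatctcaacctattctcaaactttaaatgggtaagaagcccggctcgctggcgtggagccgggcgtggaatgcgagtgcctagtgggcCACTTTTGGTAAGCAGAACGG
Chromosome 10: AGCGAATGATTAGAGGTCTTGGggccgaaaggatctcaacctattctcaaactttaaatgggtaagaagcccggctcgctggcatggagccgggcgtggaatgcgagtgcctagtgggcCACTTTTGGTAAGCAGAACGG

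The 2 stretches of 140 bases differ at 2 bases, and both primers match both places. uc029sug.1, the other entry of this locus, was at 1.88e-05, 2.31, 4.39 and 6.68 FPKM in sham 1 to sham 4 and 41.8, 9.02, 15.6 and 0.732 FPKM in IR 1 to IR 4. Summed over both entries the locus had 4, 21, 63 and 59 fragments in sham and 943, 93, 375 and 7 in IR, with a log2 fold change of 3.79 (edgeR adjusted p = 0.543).

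Gm26532 (ENSMUST00000180630) was at 5.12, 3.72, 7.29 and 4.93 FPKM in sham 1 to sham 4 and 2.74, 2.98, 3.35 and 1.95 FPKM in IR 1 to IR 4. All IR values were below all sham values (log2 fold change -0.82 ± 0.29 SE, edgeR adjusted p = 0.699). Epb41l4aos (ENSMUST00000146010) and NR_045042 had log2 fold changes of -0.56 and -0.68 with overlapping groups. AK138493 was at 0.815 ± 0.326 and 1.35 ± 0.598 FPKM, with IR 2, at 2.24 FPKM, the highest library and the groups overlapping. TCONS_00006932 was at 0.840 ± 0.379 and 0.222 ± 0.164 FPKM, from at most 7 fragments in a library. AK041430, TCONS_00025153 and AK028038 had means below 0.5 FPKM and were not tested. TCONS_00025153 had 1, 2, 0 and 1 fragments in sham and 5, 4, 5 and 5 in IR.

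Of 69 listed symbols of well-studied lncRNAs and structured RNAs, 37 were found among the entries, and 24 had an entry above the minimum. These gave 50 tested entries, of which 5 had an unadjusted p under 0.05 (beside 7.06% of all lncRNAs) and 0 had an adjusted p under 0.05 with edgeR. The median log2 fold change was -0.02, beside 0.01 over all lncRNAs. Oip5os1 (Cyrano), which directs the decay of a miRNA, was the highest of these after Rn7sk, Rn7s2 and Gm26917, at 41.7 ± 1.68 and 39.7 ± 7.20 FPKM summed over its entries. Mir22hg, the host transcript of miR-22, was at 33.5 ± 5.67 and 35.7 ± 6.02 FPKM, and Firre, a nuclear lncRNA of the X chromosome, was at 19.8 ± 1.73 and 17.6 ± 2.91. Carmn, a lncRNA of smooth muscle and the heart, was at 15.4 ± 3.10 and 12.2 ± 3.07 FPKM. Terc, the RNA template of telomerase, was at 17.7 ± 8.51 and 12.5 ± 1.10 FPKM. Groups overlapped for each of these 5. Hotair, Hottip and Pantr1, which belong to developmental domains, were at 0 in all libraries, and Bvht, described in cardiac commitment, summed to 0.330 ± 0.233 and 0.499 ± 0.334 FPKM.

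Mir142hg (ENSMUST00000123700), the host transcript of miR-142, a miRNA of blood cells, was the 1 listed entry with an unadjusted p under 0.05 and a fold change over 2 (beside 1.78% of all lncRNAs, higher in IR). It was at 2.49, 9.90, 3.42 and 3.03 FPKM in sham 1 to sham 4 and 18.05, 8.59, 9.05 and 9.72 FPKM in IR 1 to IR 4. Sham 2 lay among the IR values, so the groups overlapped, with a log2 fold change of 1.39 and an adjusted p of 0.699 from edgeR. Sham 2 was also the highest sham library in the summed markers of T and NK cells (270 FPKM) and of macrophages and dendritic cells (421 FPKM). The same held for B and plasma cells (507 FPKM), fibroblasts (134 FPKM) and endothelial cells (27.3 FPKM). It did not hold for enterocytes, goblet and Paneth cells or cardiomyocytes. The part of these cells in the level of Mir142hg was not tested. Mir17hg, the host of the miR-17 to miR-92 cluster, was at 3.42 ± 0.584 and 2.26 ± 0.613 FPKM.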

How the data were processed

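RNA of EVs labelled as cardiac, from 4 sham and 4 IR mice, was sequenced, 1 library per mouse. Trimming by the authors used cutadapt 1.9.3, alignment to mm10 used HISAT2, and quantification used Cuffdiff and Cufflinks (the versions of these 3 are not given in the sources used here). The deposited FPKM values are scaled by the authors to transcript length and library size. The deposited estimated counts are multiplied by 1 factor per library, so each was divided by the library's most frequent value above 0 (0.763 to 1.18) and rounded to fragments. FPKM values under a millionth were read as 0. The intergenic entries were tested in 1 edgeR 4.0.16 fit with all 3088 lncRNAs averaging 0.5 FPKM or more (two-sided quasi-likelihood F test, TMM, robust; R 4.3.3), with Benjamini-Hochberg adjustment over all of them. Entries were called where the fold change exceeded 2 at an adjusted p below 0.05. The biological coefficient of variation was 47.2%, and standard errors (SE) were approximated from the log2 fold change and the F statistic. DESeq2 1.42.0, limma 3.58.1, other scalings and minima, and each library left out in turn were alternatives. The members and the lists were chosen with earlier results of these data known, and the entries named were the 15 most abundant, the 8 higher and 8 lower with the smallest p, those the study names, those of the listed symbols, the 6 with the largest spread and those near marker genes. Each p measures only the spread between these mice. Nearest coding genes were taken from GENCODE vM21, because loci of the deposited tables can merge neighbouring genes, and similarity was searched with BLAST+ 2.17.0+ on GRCm38. The strand setting of the counting is not given in the sources used here. The 5 B and plasma cell markers summed to 119 to 512 FPKM, the 6 goblet and Paneth cell markers to 1816 to 3263, the 6 fibroblast markers to 63.4 to 140 and the 6 endothelial markers to 15.0 to 27.3. Intervals on fragments cover counting error only.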

Additional observations from a re-analysis of the deposited data

Results flagged for a closer look

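In 12 of 174 groups of 4 libraries examined, 1 library stood apart by Dixon's test at its 95% critical value. Some of the entries flagged had been named for their large spread or small p, so this count cannot be set against chance. Gm26924 (ENSMUST00000182010) was at 3114 FPKM in IR 3 and at 0 in the other IR libraries, and Gm26917 (ENSMUST00000182520) was at 792 FPKM in sham 1 and at 0 in the other sham libraries. Both lie within the ribosomal RNA locus. TCONS_00000373, at the locus of chromosome 1 that matches the mitochondrial genome, was at 44.7 FPKM in IR 4 and near 0 in the other IR libraries.

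Mir142hg (ENSMUST00000123700) stood apart in both groups, at 9.90 FPKM in sham 2 and 18.05 FPKM in IR 1, each the highest of its group. AK041306 on an Art2b exon was at 1.95 FPKM in IR 1, above the other IR libraries. Gm8989 (NR_030720_2) was at 9.54 FPKM in sham 1, above the other sham libraries. AK138493 was at 2.24 FPKM in IR 2, above the other IR libraries.

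Single entries of known lncRNAs also stood apart. NR_015505 of the Firre locus was at 5.21 FPKM in IR 4, uc007vyo.1 of the Pvt1 locus at 1.03 FPKM in sham 1, and ENSMUST00000182770 of the Rian locus at 0.871 FPKM in IR 1. NR_045402 of the Carmn locus was at 1.75 FPKM in IR 3, below the other IR libraries. No cause of these values was tested.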

How the results depend on the processing

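The count of entries called by edgeR was 0 in each direction under every edgeR setting run, leave-one-out included (0 to 0). DESeq2 called 3 higher, and limma called 1 higher with a pseudocount of 0.1 or 1 FPKM. Of entries past 2-fold at p under 0.05 before adjustment, the 15 higher became 93 with no minimum, 9 with a minimum of 1 FPKM and 3 in limma with a pseudocount of 1, and leaving out 1 library gave 9 (without sham 4 or IR 1) to 26 (without sham 2). The 8 lower became 46 with no minimum, 5 with a minimum of 1 FPKM, 2 in limma with a pseudocount of 1 and 5 among longer entries, and leaving out 1 library gave 6 to 12. Causes were not tested. Replicate numbers do not pair the mice (the correlations of deviations of libraries with the same number were 0.0127, -0.0141, 0.0936 and 0.0114), and with the replicate number as a block 11 were higher, 9 lower and 0 called. Summing all entries of a locus, an alternative chosen after seeing the data, turned the log2 fold change of ENSMUST00000184347 to -0.0708, of TCONS_00016061 to 0.24 and of TCONS_00013489 to 0.0118, and gave 12 higher and 6 lower. The sums for ENSMUST00000184347 and TCONS_00016061 consist almost wholly of other entries of their loci. Without the 3 most abundant entries (also chosen after seeing the data) 14 were higher and 8 lower, and without entries on coding exons 13 and 8. For named entries 415 alternative values kept their direction and side of the threshold, 5 passed it only under that alternative (ENSMUST00000184347 in limma and DESeq2, TCONS_00013490 and AK041306 in DESeq2) and the 3 locus sums given turned. Depth limits the entries under 10 fragments on average, 147 of the 1036 tested.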

Other observations

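Near coding genes, entries beyond the end on the same strand made up 211 of the 498 tested entries that lay within 10 kb of or overlapping a coding gene. CN710360 was listed at 26.2 FPKM in sham 1 and 16.9 FPKM in sham 4 from 1 fragment each, so an FPKM of this table can rest on a single fragment. Its listed length is 397 nt, but its locus (chr17:79257918-79258030) is shorter than that. Why 1 fragment gave so high an FPKM was not tested. At the Pvt1 locus, the summed FPKM of its entries was 9.76 in IR 4 and 1.01 to 2.62 in the other 7 libraries.

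The places of the primers that the study lists for 4 further entries were looked up in GRCm38. Both primers listed for NR_045042 (chromosome 5) lie within Epb41l4aos (chr18:33795091-33795444), both listed for ENSMUST00000146010, which is itself of Epb41l4aos, lie in AK136499 (chr2:181193193-181193337), and both listed for AK138493 (chromosome 2) lie in Mir142hg (chr11:87757117-87757235). For ENSMUST00000180630 the reverse primer lies at chr8:84201327-84201346, in Gm37352, and the forward primer had no exact match. Only exact matches of whole primers to the chromosomes were sought. A primer across a splice junction or with a differing base would be missed. These are matches of letters only, and the values of the study's other assays were not used here.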
